A study of Mus musculus with 61 samples.

Results

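This report covers 10 imprinted genes, H19, Igf2, Meg3, Rian, Dlk1, Peg3, Peg10, Mest, Cdkn1c and Grb10, in RNA-seq of mouse stembryos. They were chosen by symbol from the 55052 genes of the expression table, without regard to their values, and all 10 were among the 17098 genes tested. Stembryos, also called gastruloids, grow from clumps of mouse embryonic stem cells and form tissues of the embryonic trunk and tail after a pulse of the Wnt agonist Chiron, which all groups here had received. The series holds 61 libraries in 28 conditions, each library made from pooled stembryos. Wild type (wt) was sampled in a time course of 8 stages with 2 libraries each, every 12 h from 72 h to 144 h and then at 168 h. A separate set of wt controls held 4 libraries at 96 h, another 4 at 120 h and 2 at 144 h. Of the 17 mutant conditions, Del(sub-TAD1) at 96 h had 3 libraries and the others had 2.

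All mutants carried homozygous changes at or beside the HoxD cluster, on a chromosome that holds none of the 10 genes. Del(CBS1), Del(CBS2), Del(CBS4) and Del(CBS1-2) lacked the named CTCF binding sites, and the last was edited on top of Del(CBS1). Del(d1-d4) lacked the region from Hoxd1 to Hoxd4, and Ins(2xCBS-d4d8) carried a cassette with 2 CTCF sites between Hoxd4 and Hoxd8. These 6 lines were edited clones of the EmbryoMax 129/SVEV embryonic stem cells that also served as wt. Del(CBS1-5) and Del(sub-TAD1), by contrast, were embryonic stem cell lines derived from blastocysts of mutant mice. The former lacked the CTCF sites CBS1 to CBS5, and the latter the neighbouring sub-TAD1 region with the gene Mtx2, for which its mice carried a transgene. These mice were crossed repeatedly to hybrids of BL6 and CBA, whereas the edited lines have a 129 background. No blastocyst-derived line without a deletion was among the samples, so that for these 2 lines the origin of the cells, the strain and the mutation cannot be told apart. Mutants were sampled at 96 h and 120 h, except that Del(CBS4) had 120 h and 144 h, and Del(CBS1-5) also had 144 h.

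Imprinted genes are expressed mainly from the maternally or the paternally inherited copy, according to DNA methylation laid down in the germ line and kept through early development. Many of them act on growth, with paternally expressed genes such as Igf2 often promoting it and maternally expressed genes such as Cdkn1c and Grb10 often restraining it. Embryonic stem cells in culture can lose or gain this methylation, and the dosage of imprinted genes is known to vary between lines. The values given here are FPKM, that is fragments per kilobase of transcript scaled by the mapped total, which sum both alleles and cannot tell which one was transcribed.

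The 10 genes lie on 4 chromosomes of mm10. H19 (ENSMUSG00000000031, chr7:142575529-142578143) is a maternally expressed long non-coding RNA, and Igf2 (ENSMUSG00000048583, chr7:142650766-142666816) is the paternally expressed growth factor gene next to it. Cdkn1c (ENSMUSG00000037664, chr7:143458339-143461050), a maternally expressed inhibitor of cyclin-dependent kinases, lies farther along the same chromosome. Peg3 (ENSMUSG00000002265, chr7:6703892-6730421) is a paternally expressed zinc finger gene. Dlk1 (ENSMUSG00000040856, chr12:109452849-109463336), which encodes a transmembrane ligand and is paternally expressed, shares its domain with the maternally expressed non-coding RNAs Meg3 (ENSMUSG00000021268, chr12:109541001-109571726) and Rian (ENSMUSG00000097451, chr12:109603808-109661716). Peg10 (ENSMUSG00000092035, chr6:4747306-4760517), a gene derived from a retrotransposon, and Mest (ENSMUSG00000051855, chr6:30723547-30748465), which encodes a hydrolase-like protein, are paternally expressed. Grb10 (ENSMUSG00000020176, chr11:11930508-12038683), an adaptor that dampens insulin and growth factor signalling, is maternally expressed in most tissues.

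Grb10 and Dlk1 showed large differences between lines, and the RefSeq promoters of both are shown for their CpG sites. Imprints are carried by CpG methylation, but whether these promoters are the regions that carry it was not examined. Promoters were taken as the 300 bases from 250 before to 50 after the transcription start, and 7 of the 10 genes had at least 1 such entry in the RefSeq table (GRCm38.p6). In the sequences below, written 5′ to 3′ on the strand of the gene, capitals mark CpG. The first Grb10 promoter lies at chr11:12027922-12028221 (minus strand), the second at chr11:12037371-12037670 (minus strand) and that of Dlk1 at chr12:109452573-109452872 (plus strand).
Grb10 promoter 1: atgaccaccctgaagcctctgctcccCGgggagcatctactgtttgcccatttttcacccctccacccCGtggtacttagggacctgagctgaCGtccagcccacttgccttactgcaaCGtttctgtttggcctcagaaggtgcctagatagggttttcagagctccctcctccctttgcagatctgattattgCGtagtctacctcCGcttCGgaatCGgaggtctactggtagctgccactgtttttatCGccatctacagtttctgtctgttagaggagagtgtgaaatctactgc
Grb10 promoter 2: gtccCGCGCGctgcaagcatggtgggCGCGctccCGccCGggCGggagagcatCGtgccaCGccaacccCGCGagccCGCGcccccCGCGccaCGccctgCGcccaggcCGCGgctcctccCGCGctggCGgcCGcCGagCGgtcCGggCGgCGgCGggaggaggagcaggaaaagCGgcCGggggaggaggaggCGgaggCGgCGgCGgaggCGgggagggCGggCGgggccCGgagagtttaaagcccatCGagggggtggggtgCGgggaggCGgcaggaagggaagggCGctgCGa
Dlk1 promoter: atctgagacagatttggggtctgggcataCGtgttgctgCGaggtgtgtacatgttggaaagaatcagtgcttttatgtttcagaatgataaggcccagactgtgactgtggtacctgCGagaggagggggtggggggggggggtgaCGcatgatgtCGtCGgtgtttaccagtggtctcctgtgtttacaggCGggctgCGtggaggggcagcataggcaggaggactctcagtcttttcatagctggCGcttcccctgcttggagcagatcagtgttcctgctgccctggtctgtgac
The second Grb10 promoter held 45 CpG, a number reached by 1.93% of the 32851 promoters of this length, whereas the first held 9 and that of Dlk1 also 9. The median over all promoters was 7. The letters TGCCGC, the core of the motif of ZFP57 (a protein that keeps methylation at imprinted regions), were searched on both strands and occurred 1 time in the second Grb10 promoter and not in the other 2, against 11.6% of all promoters with a match. This is a description of the letters only.

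H19 also hosts a microRNA, whose mature sequences from RefSeq are shown because the H19 level is the level of its precursor transcript. Capitals mark the seed, bases 2 to 8. They lie on the minus strand at chr7:142577112-142577133 (5p) and chr7:142577078-142577099 (3p), within H19.
mmu-miR-675-5p: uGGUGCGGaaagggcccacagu
mmu-miR-675-3p: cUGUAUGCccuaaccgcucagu
The mature microRNA itself was not measured in these poly-A libraries.

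Depth, inferred from the widths of the confidence intervals in the tables, was 14.3 M (mega) to 37.0 M fragments, and the median library had 22.8 M. The lowest member value rested on 6.40 fragments (Cdkn1c in Del(CBS1) at 96 h), so that all were above the 3 fragments taken as the limit of detection, a limit that covers counting error only. Hoxd1, Hoxd3 and Hoxd4 were listed at 0 in all 4 Del(d1-d4) libraries and reached at least 2.34, 10.3 and 8.58 FPKM in the 39 other libraries at 96 h and 120 h. Neuro-mesodermal progenitor markers, which define the trunk-forming cells of stembryos, summed to 313 to 752 FPKM at 96 h in all lines. Wt replicates 3 and 4 outside the time course stood apart from replicates 1 and 2, with 24.5 to 70.8 times the chi-square per degree of freedom that counting alone gives. They also stood apart from each other, with 61.3 at 96 h and 59.9 at 120 h. The remaining replicate pairs outside the time course had 1.42 to 9.48, except pairs with Del(sub-TAD1) replicate 1 at 96 h (26.6 and 27.6). Pairs of the time course had 2.58 to 46.4. Libraries also fell into 2 sets by the summed FPKM of 300 ribosomal protein pseudogenes, with 21586 to 25412 in the 28 libraries of set 1 and 661 to 2158 in the 33 of set 2, which include the time course and wt replicate 4. The labels do not tie these sets to a batch. The Y-linked gene Kdm5d was at 0.616 and 0.802 FPKM in wt replicate 3 at 96 h and 120 h. Wt replicate 4 had 0.0995 and 0.291, and replicates 1 and 2 had 0.0103 to 0.0366. At these stages, edited lines had 0.0145 to 0.120, Del(sub-TAD1) 0.134 to 0.393 and Del(CBS1-5) 0.762 to 0.933. The labels give all these replicates as wt, and whether they came from the same stock was not tested.

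The time course asked how expression changed as wt stembryos grew from 72 h to 168 h. H19 and Igf2 rose steeply and together, Mest rose later, Dlk1 and Cdkn1c rose over the whole course, Peg10 went up, down and up again, and Peg3 rose and fell early. Limma's moderated F test over the 8 stages called 8 of the 10 genes, against 61.8% of all genes tested (Benjamini-Hochberg adjusted p below 0.05). The other 2, Meg3 (adjusted p = 0.114) and Grb10 (adjusted p = 0.562), did not pass the threshold. In bulk samples, fewer cells of a type and less RNA per cell cannot be told apart.

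**Figure D1:**
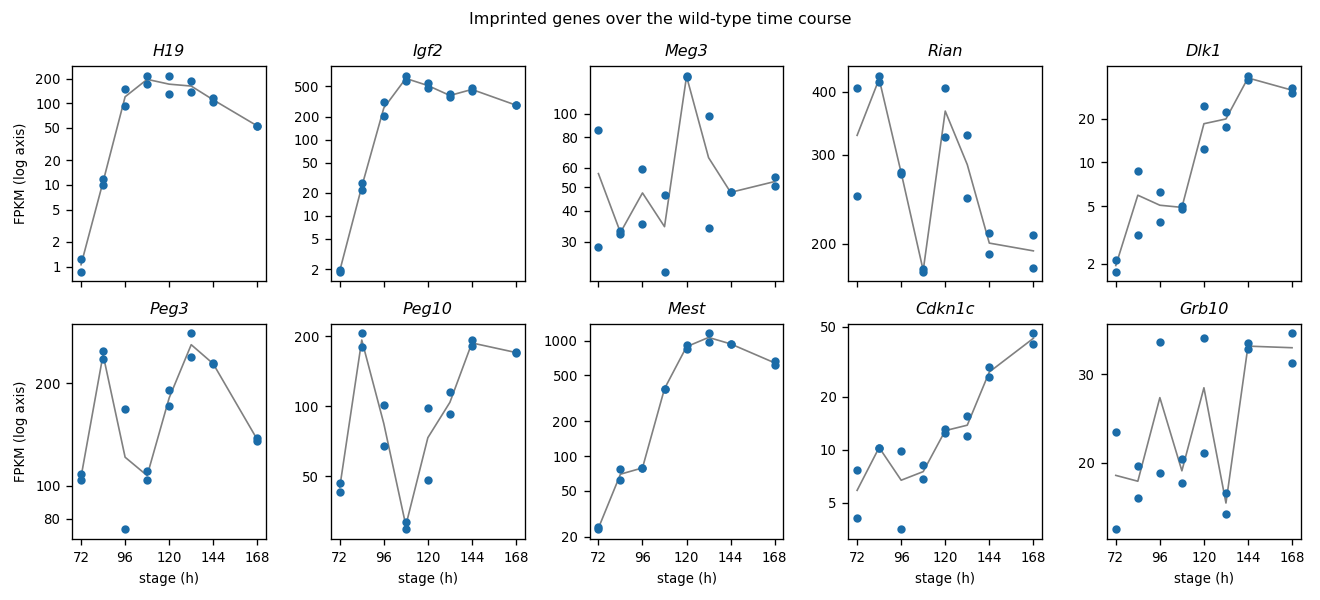
FPKM (log axis) of the 10 genes against stage (h) in the wt time course, with 1 point per library and a line through the mean of the 2 libraries of each stage. H19 and Igf2 climb from about 1 FPKM to peaks at 108 h, Mest reaches its plateau at 120 h, and Grb10 stays between 14.7 and 36.2 FPKM.

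H19 was at 0.867 and 1.24 FPKM at 72 h, 10.1 and 11.8 at 84 h, 92.0 and 149 at 96 h, and 175 and 219 at 108 h. It then stood at 129 and 215 at 120 h, 137 and 189 at 132 h, 103 and 118 at 144 h, and 53.3 and 52.5 at 168 h. The libraries of 72 h, 84 h and 96 h did not overlap with one another. H19 rose 9.68-fold from 72 h to 84 h (log2 change 3.27) and by a further 3.41 on the log2 scale to 96 h, and it fell by 1.06 from 144 h to 168 h (limma, adjusted p = 0.0242). Over the whole course it rose 46.5-fold (log2 change 5.54, standard error 0.312, adjusted p = 7.70e-17).

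Igf2, the growth factor next to H19, followed a like course at a higher FPKM. It was at 1.85 and 1.93 FPKM at 72 h, 26.6 and 21.7 at 84 h, 316 and 204 at 96 h, and 580 and 693 at 108 h. Later libraries lay between 283 FPKM at 168 h and 552 at 120 h, all below both libraries of 108 h. The log2 change was 3.60 from 72 h to 84 h, 3.39 to 96 h and 1.32 to 108 h, and 7.16 (143-fold, standard error 0.336, adjusted p = 5.03e-19) from 72 h to 168 h. The ratio of H19 to Igf2 FPKM stayed between 0.185 and 0.732 in all 16 libraries of the time course.

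Mest was at 24.4 and 23.2 FPKM at 72 h and at 78.1 and 61.6 at 84 h, and did not change between 84 h and 96 h (79.6 and 78.7 FPKM) past the threshold. It then rose to 383 and 385 at 108 h and to 926 and 848 at 120 h, with log2 changes of 2.28 and 1.21. From 120 h to 144 h all libraries lay between 848 and 1155 FPKM, and at 168 h at 614 and 671. Mest overlaps Copg2 on the opposite strand, and in the 36 libraries with Mest at 383 FPKM or more Copg2 was listed at 0, whereas it was at 25.0 to 38.4 FPKM in the 25 libraries with Mest at 14.0 to 132. The sources used here name no strand setting for these FPKM, and how fragments were divided between the 2 genes was not tested.

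Dlk1, the paternally expressed gene of its domain, was at 2.13 and 1.77 FPKM at 72 h, 5.05 and 4.76 at 108 h, 24.7 and 12.3 at 120 h, and 36.8 and 39.7 at 144 h. Its rises passed the threshold from 72 h to 84 h (log2 1.40) and from 108 h to 120 h (log2 1.81), and from 72 h to 168 h it rose 15.5-fold (log2 3.95, adjusted p = 2.35e-11). The maternally expressed Rian did not rise over the course, at 418 and 431 FPKM at 84 h and 179 and 208 at 168 h, with a low of 176 and 178 at 108 h. Its only step past the threshold was a rise from 108 h to 120 h (log2 1.04, adjusted p = 0.0442), and the change over the whole course was -0.72 (adjusted p = 0.0648). The 2 Meg3 libraries of 72 h lay far apart (28.4 and 85.3 FPKM), and only the 120 h libraries (141 and 143) lay above all others, a log2 rise of 2.13 from 108 h (adjusted p = 0.0411).

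Peg3 and Peg10 rose from 72 h to 84 h by 1.19 and 2.10 on the log2 scale and fell by 1.11 and 1.22 to 96 h. Peg10 was at 206 and 180 FPKM at 84 h, 31.9 and 29.5 at 108 h, and 182 and 193 at 144 h, a fall and a return in which none of these 6 libraries overlapped between low and high stages. Peg3 stood at 249 and 236 FPKM at 84 h, 110 and 104 at 108 h, and 239 and 280 at 132 h, and no step after 96 h passed the threshold for it. Over the whole course Peg10 rose 3.80-fold (adjusted p = 7.03e-06), and Peg3 changed by 0.37 on the log2 scale (adjusted p = 0.406).

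Cdkn1c, which slows the cell cycle, was at 7.65 and 4.10 FPKM at 72 h, 13.2 and 12.5 at 120 h, 25.9 and 29.5 at 144 h, and 45.9 and 40.2 at 168 h. No single step passed the threshold, but the rise from 72 h to 168 h did (7.55-fold, log2 2.92, standard error 0.509, adjusted p = 8.79e-06). Grb10 was at 23.0 and 14.7 FPKM at 72 h and 36.2 and 31.6 at 168 h (log2 0.87, standard error 0.581, adjusted p = 0.241). Counted over the steps, 6 members rose to 84 h (16.3% of all genes called in either direction), 2 rose and 2 fell to 96 h (20.7%), 2 rose and 1 fell to 108 h (9.45%), and 5 rose to 120 h (7.06%). From 120 h to 132 h limma called 0 members (2.46%, and 0 at an unadjusted p under 0.05), from 132 h to 144 h it called 0 (5.42%, and 2 at an unadjusted p under 0.05), and from 144 h to 168 h it called 1 (9.87%). Between 72 h and 168 h, 6 of 10 rose, beside 48.2% of all genes called.

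The second comparison set the 2 blastocyst-derived lines against the EmbryoMax lines at the same stage, wt outside the time course included, with equal weight for each line. Grb10 and Cdkn1c were several-fold higher in both blastocyst-derived lines, Dlk1 was higher, and Meg3, Rian, Mest and Peg3 were lower. H19 and Igf2 did not differ past the threshold, but for H19 at 96 h and Igf2 at both stages this depended on wt replicates 3 and 4 (below). At 96 h limma called 8 of 10 members (3 higher, 5 lower), against 42.5% of all genes, and at 120 h 7 of 10 (3 higher, 4 lower), against 42.0%. The median log2 difference of the members was -0.60 at 96 h and -0.02 at 120 h, and that of all genes 0.02 and 0.05.

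**Figure D2:**
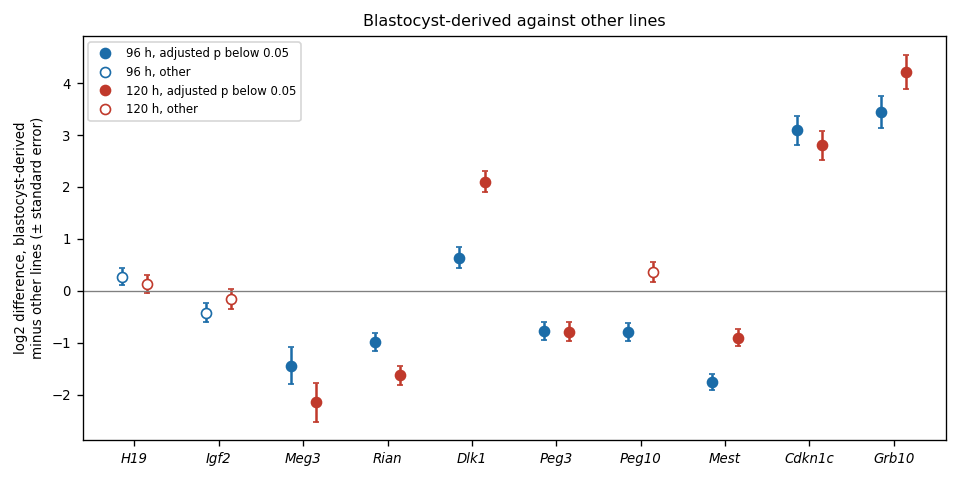
Log2 difference in log2(FPKM + 0.1) between the 2 blastocyst-derived lines and the other lines at 96 h (blue) and 120 h (red), with the standard error as bars and filled points for an adjusted p below 0.05. Cdkn1c and Grb10 lie at 2.80 to 4.22, Dlk1 above 0 at both stages, and Meg3, Rian, Peg3 and Mest below 0 at both.

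Grb10 was at 95.4 and 95.0 FPKM in Del(CBS1-5) and at 72.8, 106 and 104 in Del(sub-TAD1) at 96 h. The 14 other libraries of 96 h ran from 3.12 to 105 FPKM with a median of 6.37, and the highest of them was wt replicate 3. The log2 difference was 3.45 (10.9-fold, standard error 0.310, adjusted p = 1.52e-10). At 120 h the blastocyst-derived libraries were at 168, 162, 113 and 109 FPKM, and the 16 others ran from 1.81 to 178 with a median of 5.51, again with wt replicate 3 highest. The log2 difference was 4.22 (18.6-fold, standard error 0.327, adjusted p = 7.78e-12).

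By line means, Grb10 at 96 h stood in the order Del(CBS1-5) (95.2 FPKM), Del(sub-TAD1) (94.1), wt (46.0), Del(d1-d4) (45.0), Del(CBS2) (6.37), Del(CBS1) (3.40), Ins(2xCBS-d4d8) (3.32) and Del(CBS1-2) (3.17). The first pair, wt and Del(d1-d4), and the last 3 were within the spread of their libraries. At 120 h the order began with Del(CBS1-5) (165), Del(sub-TAD1) (111), wt (72.2) and Del(d1-d4) (64.5), then Del(CBS2) (8.24), and ended with 4 lines at 2.03 to 2.93 FPKM. Edited lines of 1 parental stock therefore spanned more than 10-fold in Grb10, with Del(d1-d4) nearest to wt.

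Cdkn1c was at 11.9 and 12.0 FPKM in Del(CBS1-5) and 19.5, 14.0 and 18.0 in Del(sub-TAD1) at 96 h, and the 14 others ran from 0.413 to 13.4 with a median of 2.57. At 120 h it was at 41.9 and 39.7 in Del(CBS1-5) and 56.8 and 50.9 in Del(sub-TAD1), against 1.77 to 39.8 with a median of 7.40 in the 16 others. The libraries of the other lines that reached this range were wt replicate 3 (13.4 and 39.8 FPKM) and, close below it at 120 h, both Del(d1-d4) libraries (38.4 and 39.2). The log2 difference was 3.09 (8.49-fold, standard error 0.272) at 96 h and 2.80 (6.98-fold, standard error 0.287) at 120 h, with adjusted p-values of 9.77e-11 and 4.62e-09. Without wt replicates 3 and 4, the log2 differences were 3.21 and 2.92 for Cdkn1c and 3.59 and 4.38 for Grb10.

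Dlk1 was at 8.72 and 8.40 FPKM in Del(CBS1-5) and 5.44, 7.20 and 6.25 in Del(sub-TAD1) at 96 h, where the other lines ran from 2.24 to 8.56 with a median of 4.94, so that 1 Del(CBS1-5) library lay above them all. At 120 h it was at 36.2, 26.8, 40.2 and 35.8 FPKM against 1.51 to 27.8 with a median of 9.98, and only Del(d1-d4), at 27.8 and 27.5, overlapped. The log2 difference rose from 0.64 (standard error 0.195, adjusted p = 0.00928) to 2.10 (standard error 0.206, adjusted p = 1.72e-09). That change of 1.46 passed the threshold itself (standard error 0.283, adjusted p = 0.000688).

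**Figure D3:**
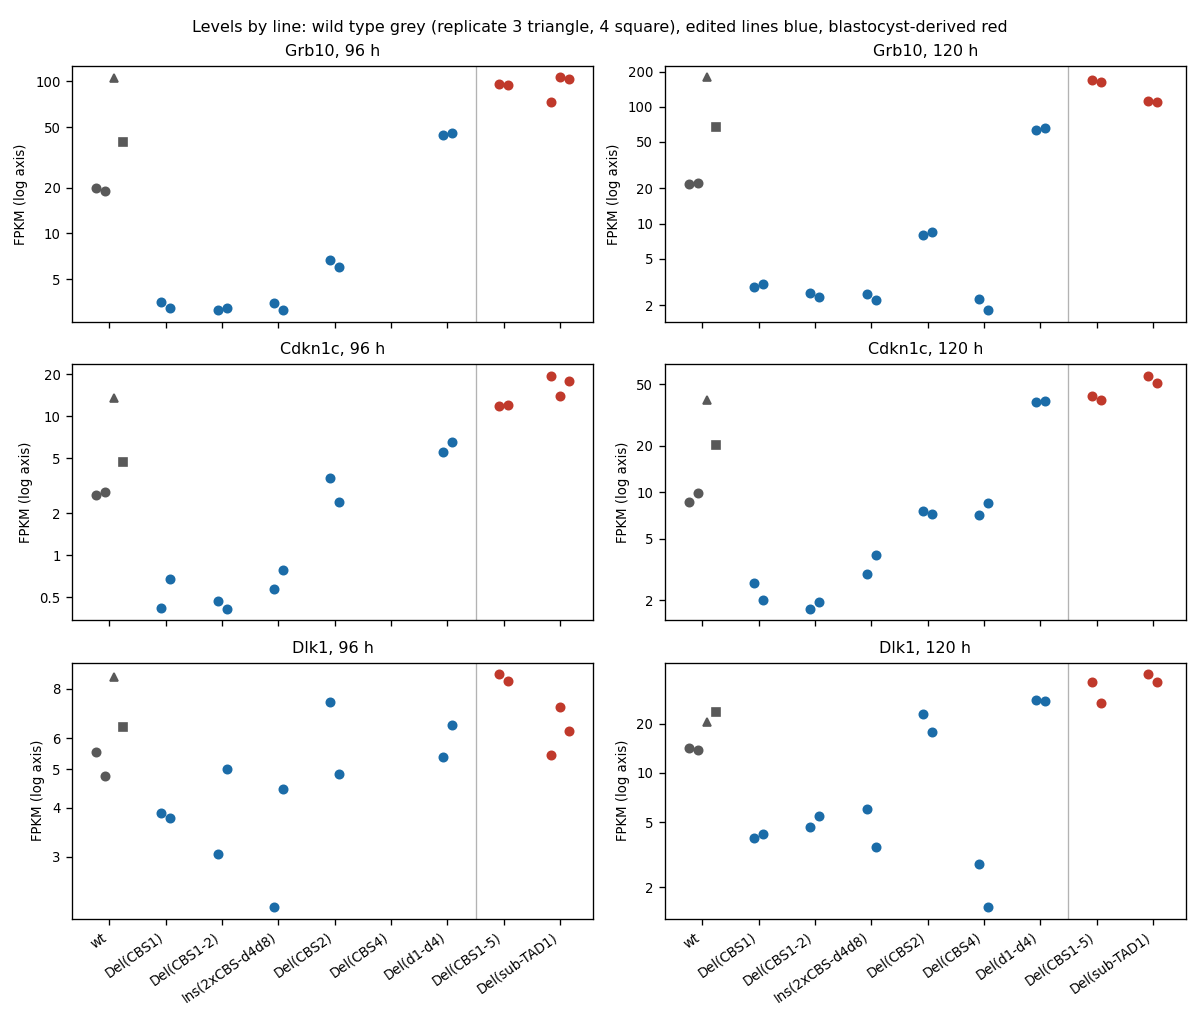
FPKM (log axis) of Grb10, Cdkn1c and Dlk1 in each library at 96 h (left) and 120 h (right), by line, with wt in grey (replicate 3 as a triangle, replicate 4 as a square), edited EmbryoMax lines in blue and blastocyst-derived lines in red. At 120 h, Grb10 lies at 1.81 to 8.48 FPKM in 5 edited lines, at 63.8 and 65.2 in Del(d1-d4) and at 109 to 168 in the blastocyst-derived lines, and Del(CBS4) has no library at 96 h.

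The maternally expressed RNAs of the Dlk1 domain went the opposite way. Rian was at 136 and 145 FPKM in Del(CBS1-5) and 121 and 116 in Del(sub-TAD1) at 120 h, below all 16 other libraries (148 to 665, median 444). Of the 20 pairs of member and stage this was the only one without overlap between libraries, where 2.02% of all genes lay fully below and 2.31% fully above at 120 h, and 0.380% and 3.05% at 96 h. The log2 difference of Rian was -0.98 (adjusted p = 2.70e-05) at 96 h and -1.63 (3.09-fold lower, adjusted p = 2.71e-08) at 120 h. Meg3 was at 21.2 to 69.7 FPKM in the 5 blastocyst-derived libraries of 96 h, where the others had 32.8 to 214 and a median of 153. At 120 h it was at 27.5 to 49.8 FPKM, where the others had 41.9 to 320 and a median of 190. Its log2 difference was -1.44 (adjusted p = 0.00122) and -2.15 (adjusted p = 2.55e-05).

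Mest was at 26.2, 24.8, 45.6, 16.1 and 14.0 FPKM in the blastocyst-derived libraries of 96 h, and at 34.8 to 132 (median 69.7) in the others. The difference was -1.75 on the log2 scale (3.37-fold lower, adjusted p = 1.72e-10) at 96 h and -0.90 (1.87-fold lower, adjusted p = 7.04e-05) at 120 h. Mest rose between 96 h and 108 h in the time course, and by the 1000 genes that varied most over that course the blastocyst-derived libraries of 96 h matched 90 to 92 h, against 101, 100 and 100 h for wt replicates 1, 2 and 4 and 92 h for replicate 3. The edited EmbryoMax libraries of 96 h matched 92 to 100 h. Both Del(CBS1-2) libraries, with Mest at 104 and 108 FPKM, matched 92 h. The part of this matched age in the result was not tested. Peg3 was lower at both stages, by 0.78 and 0.79 on the log2 scale (1.72-fold and 1.73-fold, adjusted p = 0.000430 and 0.000869), and Peg10 was lower at 96 h (-0.79, adjusted p = 0.000504) but not past the threshold at 120 h (0.36, adjusted p = 0.120).

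H19 was at 321 and 309 FPKM in Del(CBS1-5) and 329, 218 and 213 in Del(sub-TAD1) at 96 h, within the 120 to 400 of the others. The log2 difference of H19 was 0.27 (standard error 0.167, adjusted p = 0.188) at 96 h and 0.13 (standard error 0.176, adjusted p = 0.595) at 120 h. At 120 h the 2 blastocyst-derived lines differed from each other, with 775 and 692 FPKM in Del(CBS1-5) and 349 and 331 in Del(sub-TAD1) (log2 difference -1.11, adjusted p = 0.0186). That was the 1 member called between them at 120 h (8.83% of all genes), and at 96 h limma called 0 (40.2%, with 1 member at an unadjusted p under 0.05). Igf2 ran from 83.1 to 151 FPKM in the blastocyst-derived libraries of 96 h and from 92.3 to 262 in the others, with log2 differences of -0.42 (adjusted p = 0.0557) and, at 120 h, -0.16 (adjusted p = 0.513). Without wt replicates 3 and 4, left out after seeing the data, H19 was higher (0.35, adjusted p = 0.00913) and Igf2 lower (-0.51, adjusted p = 1.11e-05) at 96 h. At 120 h Igf2 was then lower (-0.25, adjusted p = 0.0204) and Peg10 higher (0.38, adjusted p = 0.00664), so that limma called 10 members at 96 h and 9 at 120 h.

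With the line as the unit, as the 2 origins allow, the means of log2(FPKM + 0.1) of both blastocyst-derived lines lay above those of all other lines for Dlk1, Cdkn1c and Grb10 at both stages. On the FPKM scale, the mean of Dlk1 at 96 h was 6.32 in wt and 6.30 in Del(sub-TAD1). They lay below for Meg3 and Mest at both stages and for Rian and Peg3 at 120 h. A two-sided exact permutation test over line means gave p = 0.0714 for each such gene at 96 h (2 against 6 lines) and p = 0.0556 at 120 h (2 against 7 lines), which are the smallest values these designs allow. Adjusted over the members and both stages (Benjamini-Hochberg), each of these permutation tests gave p = 0.119. The share of all genes with line means apart in this way was not computed, so this separation cannot be called particular to the members.

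At 96 h the only blastocyst-derived line was Del(CBS1-5) in library set 1 and Del(sub-TAD1) in set 2, so each contrast rests on a single such line. In these fits the wt time course libraries of the stage, all of set 2, were counted with the other wt. Within library set 1, the log2 difference at 96 h was 3.21 for Grb10, 2.61 for Cdkn1c, 0.75 for Dlk1, -1.45 for Meg3, -1.04 for Rian, -0.94 for Peg3, -1.09 for Peg10 and -1.46 for Mest, all past the threshold. Within set 2 it was 3.20 for Grb10, 3.05 for Cdkn1c, -2.19 for Mest, -0.96 for Rian and -0.83 for Peg3, also past it, whereas Meg3 (-0.73, adjusted p = 0.337), Dlk1 (0.59, adjusted p = 0.116) and Peg10 (-0.43, adjusted p = 0.252) were not. Igf2 passed it in set 2 only (-1.03, adjusted p = 0.0169). At 120 h the blastocyst-derived libraries were all of set 1, where the difference was 3.58 for Grb10, 2.68 for Cdkn1c, 1.59 for Dlk1, -1.64 for Rian and -2.23 for Meg3.

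Some markers of other cell types differed with the origin of the lines, where 42.5% of all genes were called at 96 h and 42.0% at 120 h. The sums of presomitic mesoderm, somite, spinal cord, endothelium and blood, and cardiac markers overlapped between origins at both stages. Of 8 pluripotency genes, 6 were higher in the blastocyst-derived lines at both stages (Dppa5a, Esrrb, Nanog, Pou5f1, Tfcp2l1 and Zfp42), and their list summed to 115 to 750 FPKM at 96 h and 52.2 to 702 at 120 h, against 37.4 to 350 and 25.9 to 349 in the other lines. Of 6 endoderm markers, 1 was higher at 96 h (list sum 145 to 508 FPKM, others 63.3 to 235) and all 6 at 120 h (110 to 198, others 6.39 to 189), and trophoblast markers summed to 4.33 to 8.85 at 96 h (others 1.49 to 4.01), with 6 of the 8 under 1 FPKM in every library. Visceral endoderm markers summed to 12.6 to 14.8 FPKM at 96 h (others 1.06 to 11.5), with 5 of the 6 under 1 FPKM in every library, and to 4.42 to 29.6 at 120 h (others 0.624 to 12.7). Mitochondrial mRNAs summed to 4198 to 12020 FPKM at 96 h (others 9760 to 16370) and to 5984 to 8153 at 120 h (others 7646 to 14280). The part of these genes and cells in the differences of the members was not tested.

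Each mutant was also compared with wt of its stage outside the time course, to ask whether the edited lines differed from their parental line in imprinted genes. Of 170 values (10 genes in 17 conditions), 55 passed the threshold, 24 higher and 31 lower, or 32.4% against 12.1% over all genes. Comparisons of 1 stage share their wt libraries. Grb10 was lower in 10 of the 12 conditions of edited EmbryoMax lines and higher in 3 of the 5 conditions of blastocyst-derived lines. Cdkn1c was lower in 7 and higher in 5, and Dlk1 lower in 6 and higher in 2, with the same split between the 2 origins.

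In Del(CBS1), limma called 2 members lower at 96 h (1.23% of all genes) and 3 lower at 120 h (2.10%). Grb10 was at 3.55 and 3.25 FPKM at 96 h and 2.85 and 3.02 at 120 h, where the 4 wt libraries were at 20.0, 19.1, 105 and 39.9, and at 21.8, 22.1, 178 and 67.0. All mutant libraries were below all controls, and the log2 difference was -3.35 (10.2-fold, adjusted p = 0.000531) and -4.02 (16.2-fold, adjusted p = 2.24e-05). Cdkn1c was at 0.416 and 0.678 FPKM at 96 h and 2.61 and 2.02 at 120 h, below wt at 2.72, 2.87, 13.4 and 4.66, and at 8.61, 9.96, 39.8 and 20.2. Dlk1 was at 4 and 4.24 FPKM at 120 h against 14.2, 13.9, 20.4 and 23.5 in wt, a log2 difference of -2.07 (adjusted p = 0.000234).

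Del(CBS1-2), made from Del(CBS1), had the same 3 genes low. At 96 h 2 members were lower and 3 higher (4.49%), and at 120 h 3 were lower and 1 higher (2.35%). Grb10 was at 3.12 and 3.21 FPKM at 96 h and 2.55 and 2.37 at 120 h (log2 difference -3.45 and -4.26, adjusted p = 0.000106 and 2.32e-06), and Cdkn1c was at 0.466, 0.413, 1.77 and 1.96 FPKM. Its H19 was at 796 and 829 FPKM at 120 h against 245, 254, 449 and 440 in wt, above all controls (log2 difference 1.29, adjusted p = 0.00644), a call lost when either mutant library was left out. The 3 members higher at 96 h were Peg3, Peg10 and Mest, by 1.02, 1.11 and 1.13 on the log2 scale. Without wt replicates 3 and 4, Peg3 (0.48, adjusted p = 0.274) and Peg10 (0.51, adjusted p = 0.199) were not past the threshold, and each also lost its call in 4 of the 6 fits that left out 1 library.

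Ins(2xCBS-d4d8) had 3 members lower and 4 higher at 96 h (27.9%) and 3 lower and 2 higher at 120 h (26.9%). Grb10 was at 3.51 and 3.13 FPKM at 96 h and 2.48 and 2.21 at 120 h (log2 difference -3.38 and -4.33), and Cdkn1c at 0.576, 0.777, 2.97 and 3.94 (-2.65 and -2.21). Dlk1 was at 6.01 and 3.53 FPKM at 120 h (-1.91, adjusted p = 8.24e-05). Rian, at 500 and 489 FPKM at 96 h and 665 and 617 at 120 h, was above all wt libraries at both stages, by 1.03 and 1.14 on the log2 scale (adjusted p = 0.00646 and 0.00328). Mest was higher at 96 h (132 and 132 FPKM, log2 difference 1.45). Without wt replicates 3 and 4, Dlk1 (-0.69, adjusted p = 0.126), Peg3 (0.40, adjusted p = 0.149) and Peg10 (0.28, adjusted p = 0.296) at 96 h and Peg3 at 120 h (0.46, adjusted p = 0.104) were no longer past the threshold.

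Del(CBS4), compared at 120 h and 144 h, had 3 members lower and 1 higher (37.5%) and then 4 lower and 1 higher (2.05%). Grb10 was at 2.25 and 1.81 FPKM at 120 h and 2.37 and 2.52 at 144 h, where wt was at 26.0 and 27.3, with log2 differences of -4.53 (adjusted p = 3.92e-08) and -3.39 (adjusted p = 0.000699). Dlk1 was at 2.77 and 1.51 FPKM at 120 h and 6.01 and 6.59 at 144 h against 37.7 and 30.8 in wt (-3.04 and -2.42). Igf2 was at 80.6 and 85.9 FPKM at 144 h against 279 and 270 (-1.72, adjusted p = 0.00243) and H19 at 432 and 503 against 173 and 157 (1.50, adjusted p = 0.00450), though the call on H19 was lost without replicate 2 of either group. Cdkn1c was also lower at 144 h, a call lost in 4 of the 4 fits that left out 1 library. At 120 h the call on Peg10 (higher) was lost in 4 of 6 such fits and that on Igf2 (lower) in 3. The Del(CBS4) libraries of 144 h matched 136 h and 127 h of the time course and the wt libraries 157 h and 158 h. The part of this age in these differences was not tested. Del(CBS2) had 1 member lower at each stage, Grb10 (0.298% and 0.193%), at 6.72 and 6.03 FPKM at 96 h and 8 and 8.48 at 120 h. Those log2 differences of -2.46 and -2.56 (adjusted p = 0.0159 and 0.0203) were not past the threshold when 1 of its own libraries was left out.

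Del(d1-d4) was the line in which limma called 0 members, both at 96 h (1.19%, and 0 at an unadjusted p under 0.05) and at 120 h (1.85%, and 3 at an unadjusted p under 0.05). Its Grb10 was at 44.5 and 45.6 FPKM and then 63.8 and 65.2, between wt replicates 1 and 2 and wt replicate 3. With wt replicates 3 and 4 left out, chosen after seeing the data, Grb10 was higher in Del(d1-d4) by 1.20 (adjusted p = 0.000939) and 1.55 (adjusted p = 9.53e-06) and Cdkn1c at 120 h by 2.05 (adjusted p = 2.83e-05), so that here the choice of wt libraries decided the call.

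Del(CBS1-5) had 1 member higher and 1 lower at 96 h (14.8%), 3 higher and 1 lower at 120 h (13.3%) and 4 higher at 144 h (23.7%). With 1 library left out, the call on Cdkn1c was lost in 5 of 6 fits at 96 h and in 4 of 6 at 120 h. Grb10 at 120 h lost its call in 4, Mest at 96 h and Rian at 120 h in 2, and H19 at 120 h in 1. The calls at 144 h were kept in all such fits. At 144 h H19 in Del(CBS1-5) was at 1549 and 1663 FPKM, the highest values of the series, against 173 and 157 in wt (9.75-fold, log2 difference 3.29, standard error 0.312, adjusted p = 5.18e-10). Dlk1 was at 130 and 134 FPKM against 37.7 and 30.8, Cdkn1c at 78.3 and 102 against 19.6 and 17.6, and Grb10 at 130 and 135 against 26.0 and 27.3, with log2 differences of 1.95, 2.26 and 2.32. These libraries matched 137 h and 138 h of the time course and the wt libraries 157 h and 158 h, and the part of this age in the result was not tested.

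Del(sub-TAD1) had 2 members higher and 2 lower at 96 h (40.0%) and the same numbers at 120 h (6.15%). Cdkn1c was higher at both stages (log2 difference 1.83 and 1.72, adjusted p = 0.000549 and 0.0138), Grb10 at 96 h (1.38, adjusted p = 0.0129) and Dlk1 at 120 h (1.11, adjusted p = 0.0285). Mest and Igf2 were lower at 96 h, by 1.14 and 0.83 on the log2 scale, and Meg3 and Rian at 120 h, by 1.97 and 1.30. At 120 h the calls on Cdkn1c, Dlk1 and Meg3 were each lost in 4 of the 6 fits that left out 1 library, and that on Rian in 2. At 96 h Igf2 lost its call in 3 of 7 such fits and Grb10 in 2, while Mest and Cdkn1c lost theirs in 0. The change of the effect from 96 h to 120 h was past the threshold for 0 of 10 members both in Del(sub-TAD1) (23.6%, and 3 at an unadjusted p under 0.05) and in Del(CBS1-5) (0.257%, and 1). For the contrast of origins, it was past the threshold for 4 of 10 (29.3%), namely Dlk1 above, Peg10 (1.15), Mest (0.85) and Rian (-0.65).

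Of the 55 calls, 26 were kept with any 1 library left out, among them Grb10 in Del(CBS1), Del(CBS1-2), Del(CBS4) and Ins(2xCBS-d4d8) at every stage sampled. Of the 46 at 96 h or 120 h, 40 were kept without wt replicates 3 and 4, the 6 lost being those of Del(CBS1-2) and Ins(2xCBS-d4d8) given above. When the fit held only the compared conditions, 7 of the 55 were kept, all of them at 144 h. These were H19, Dlk1, Cdkn1c and Grb10 in Del(CBS1-5) and Igf2, Cdkn1c and Grb10 in Del(CBS4). Every call at 96 h or 120 h, those on Grb10 included, was lost in these fits.

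The ratio of H19 to Igf2 FPKM, both per length, describes a pair of neighbours that share enhancers and use them from opposite alleles. It was 0.520 to 3.71 in the 4 wt libraries at 96 h and 0.654 to 3.77 at 120 h, with the high values in replicates 3 and 4, and 0.580 to 0.618 at 144 h. In Del(CBS4) it was 3.75 to 3.99 at 120 h and 5.36 to 5.85 at 144 h, and in Del(CBS1-2) 3.22 to 3.42 at 96 h and 5.01 to 5.07 at 120 h. Ins(2xCBS-d4d8) stayed at 0.634 to 0.934 and Del(d1-d4) at 0.868 to 1.13. The blastocyst-derived lines had 2.13 to 2.59 at 96 h and 1.77 to 3.36 at 120 h, with medians of 2.56 and 2.50. These lay inside the ranges of the EmbryoMax lines, which had medians of 1.49 and 2.05 and reached 0.520 to 3.71 and 0.654 to 5.07.

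**Figure D4:**
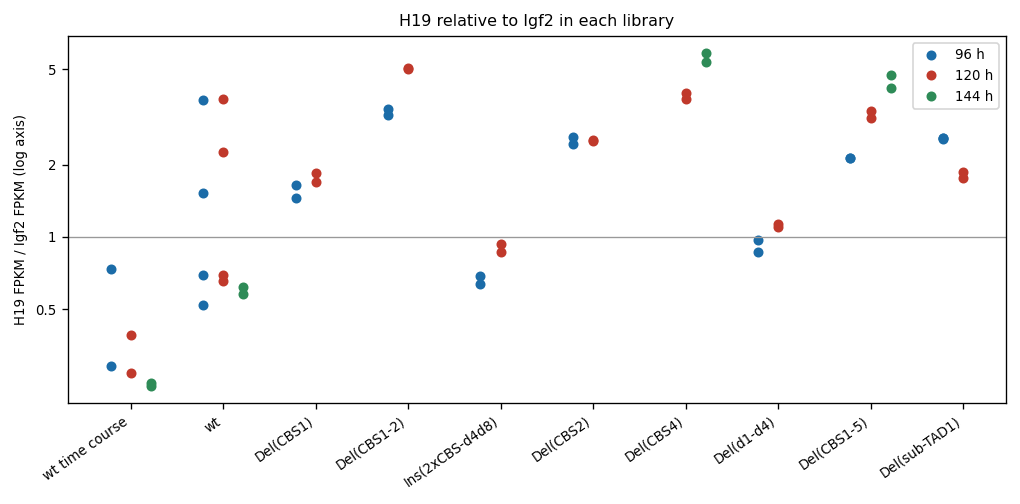
Ratio of H19 FPKM to Igf2 FPKM (log axis) in each library by line and stage, with the wt time course apart and a line at 1. Both Del(CBS4) libraries at 144 h lie above 5, all time course libraries below 1, and the wt libraries on both sides of 1.

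Other imprinted genes were taken from a list of 49, of which 48 were in the table and 39 were tested. At 96 h 11 of them were higher in the blastocyst-derived lines, 15 lower and 13 not past the threshold, and at 120 h 13, 16 and 10. Limma thus called 26 and 29 of 39, beside 42.5% and 42.0% of all genes. Of these, 24 were called in the same direction at both stages. The 10 higher ones held 8 genes known as maternally expressed and 2 as paternally expressed, and the 14 lower ones 12 paternally and 2 maternally expressed genes. These are counts of genes and not of imprinted domains. Neighbours such as Phlda2 and Slc22a18 near Cdkn1c, or Usp29 next to Peg3, are counted separately though they are not independent. With the members added, 25 maternally expressed genes were tested, of which 11 were higher and 4 lower at 96 h and 12 and 4 at 120 h (median log2 difference 0.17 and 0.13). Of 24 paternally expressed genes, 3 were higher and 16 lower at 96 h and 4 and 16 at 120 h (median -0.62 and -0.44). Cdkn1c, Grb10, Peg3 and Mest were among the genes that followed this split, whereas Dlk1, Meg3 and Rian ran against it. Against wt, Del(CBS1-5) had 1 paternally expressed gene higher and 10 lower at 96 h (14.8% of all genes called). At 120 h it had 1 and 7 (13.3%), and at 144 h 3 and 5 (23.7%). Del(sub-TAD1) had 2 and 9 at 96 h (40.0%) and 1 and 3 at 120 h (6.15%). Del(CBS4) had 10 and 4 at 120 h (37.5%) and Ins(2xCBS-d4d8) 9 and 2 at 96 h (27.9%). Other edited conditions had 0 to 5 and 0 to 2 (0.193% to 26.9%). Both sides thus held lines that departed from wt.

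Ndn, a paternally expressed gene known for its part in neurons, was at 2.99 to 7.85 FPKM in the blastocyst-derived libraries of 96 h and 13.4 to 24.6 in the others, and at 4 to 10.6 against 17.3 to 40.6 at 120 h, without overlap at either stage (log2 difference -1.85 and -2.03). Igf2r, the maternally expressed receptor that removes IGF2, had medians of 26.5 against 10.3 FPKM at 96 h and 27.3 against 7.47 at 120 h (1.09 and 1.75). Phlda2, a maternally expressed gene near Cdkn1c that restrains placental growth, had 49.9 against 20.6 FPKM at 96 h and 4.79 against 0.902 at 120 h (1.96 and 2.15), and its neighbour Slc22a18 1.52 against 0.180 FPKM at 96 h (2.48). Mirg, a non-coding RNA of the Dlk1 domain, was lower with Meg3 and Rian (-1.13 and -1.39).

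**Figure D5:**
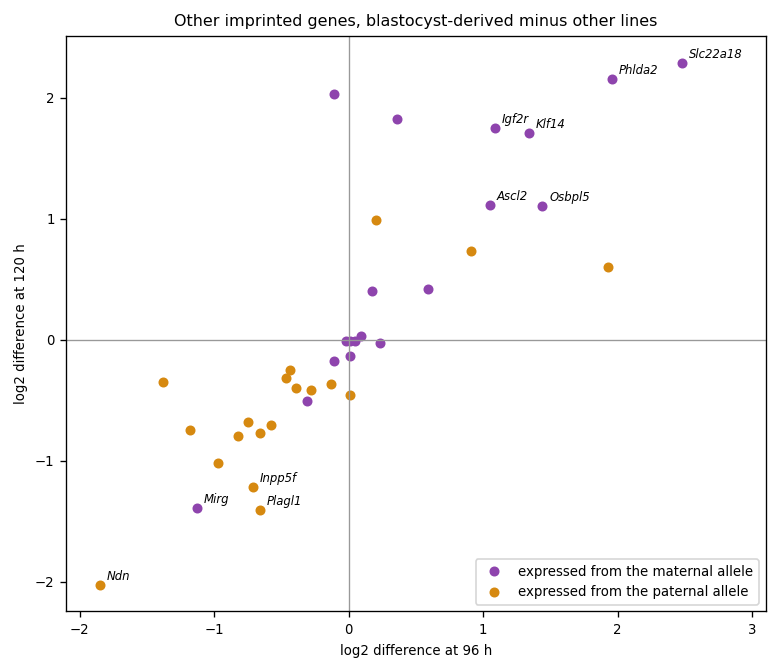
Log2 difference between blastocyst-derived and other lines at 96 h (x axis) and 120 h (y axis) for the other imprinted genes tested (Copg2 left out), coloured by the allele they are known to be expressed from, with the 10 named of those called at both stages. Ndn lies lowest on both axes, Slc22a18 and Phlda2 highest, and Mirg is the maternally expressed gene farthest below 0.

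In the time course, 34 of the 39 other imprinted genes varied between stages, beside 61.8% of all genes, among them Copg2, whose values move with Mest as given above. From 72 h to 168 h 19 rose and 11 fell, beside 48.2% of all genes called. Of 12 tested genes that set, keep or remove DNA methylation at imprints, 6 were higher in the blastocyst-derived lines and 0 lower at 96 h (42.5%), and 3 were higher and 1 (Zfp445, -0.21) lower at 120 h (42.0%). Dppa3, which guards maternal methylation in the early embryo, was at 2.43 to 24.0 FPKM against 0 to 8.35 at 96 h (log2 difference 5.58) and at 0.881 to 20.2 against 0 to 7.46 at 120 h (4.03), where the highest other library was wt replicate 3 at both stages. The 2 blastocyst-derived lines were unlike at 120 h, with 17.5 and 20.2 FPKM in Del(CBS1-5) and 0.920 and 0.881 in Del(sub-TAD1). The latter lay below wt replicates 3 and 4 (7.46 and 2.83). Dnmt3l, a cofactor of de novo methylation, had medians of 5.91 against 0.144 FPKM and 9.85 against 0.102 (4.72 and 3.85). Dnmt3a, a de novo methyltransferase, differed less, by 0.39 and 0.22. The other 3 higher at 96 h were Tet1 (0.58) and Tet2 (0.64), enzymes that remove methylation, and Trim28 (0.12), a corepressor recruited by ZFP57.

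The genes whose levels were most like those of the members were ranked by Pearson's r over the 28 condition means, which share libraries, stages and depth, and r is given as a description. Rian was most like Mirg (r = 0.950) and Peg3 most like its neighbour Usp29 (0.969), an imprinted gene in each case. Dlk1 was most like Zim1 (0.895), an imprinted gene from another domain, and Mest most like Igfbp5 (0.975) and Eno3 (0.962). Igf2 was closest to Hmga2 (0.929), H19 to Meox1 (0.894), Meg3 to Xrcc3 (0.910), Cdkn1c to Prkag1 (0.896), Grb10 to Hspb8 (0.852) and Peg10 to Pcdh18 (0.823). The members themselves were left out of this ranking, so that none of them could appear as a closest gene.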

How the data were processed

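Deposited tables of 61 mouse stembryo RNA-seq libraries were analysed, grouped by genotype, stage and series as in the sample titles. Per the submitters' processing notes and the study's methods, reads of stranded poly-A libraries were trimmed with cutadapt 1.16 and aligned on mm10 with STAR 2.7.7a. Cufflinks 2.2.1 was run with default parameters on reads that mapped to 1 place. The authors deposited the resulting FPKM per gene, which are not counts. Depth was inferred from the confidence intervals of single-transcript genes of 3000 bases or more, was 14.3 to 37.0 M fragments, and limits the precision of low genes only. For Peg10 in 7 libraries the estimate had failed, and the listed value was used. A value of 0 is only listed at 0.

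Log2(FPKM + 0.1) was fitted with limma 3.58.1 in R 4.3.3 over all 61 libraries with 1 coefficient for each of 28 conditions, for the 17098 genes whose mean reached 1 FPKM in 1 or more conditions. Fold changes are on this scale, which understates those of low genes. P-values, two-sided, were adjusted over all genes of a comparison (Benjamini-Hochberg, threshold 0.05). Lines were weighted equally in the contrast of origins. The study's methods call replicates biological, but GEO's labels tie them to no separate cultures, so p-values measure the spread between these samples. No replicate pair agreed within sampling noise. The fit was tested on simulated data. Members, lists and tests were chosen with earlier results of these data known. Besides the members, the text names genes of fixed lists of imprinted genes, regulators of imprint methylation, Y-linked genes and cell type markers. It also names the 10 listed imprinted genes with the largest difference called at both stages, and the most similar gene of each member. Alternatives were another pseudocount, filter, scaling and fit, a replicate block, each library set, and each line or library left out. The other steps used Python 3.11.15 with scipy 1.17.1, numpy 2.4.6, pandas 2.3.3 and matplotlib 3.10.9.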

Additional observations from a re-analysis of the deposited data

Results flagged for a closer look

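Among 20 groups of 4 or more libraries of a member, 1 held a library far from the others, about as many as chance gives (1 in 20). Peg10 in wt at 120 h was at 89.7 FPKM in replicate 4, and its gap to the next library made up 0.833 of the group's range. H19 differed between the 2 blastocyst-derived lines at 120 h, with a log2 difference of -1.11 between Del(sub-TAD1) and Del(CBS1-5) (limma, adjusted p = 0.0186).

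The difference between origins changed from 96 h to 120 h for 4 members in limma's test of the change, by -0.65 for Rian (adjusted p = 0.0477), 1.46 for Dlk1 (adjusted p = 0.000688), 1.15 for Peg10 (adjusted p = 0.00270) and 0.85 for Mest (adjusted p = 0.00806). Del(CBS4) was among the other lines at 120 h and not at 96 h. Without it, the difference at 120 h was -1.74 for Rian, 1.78 for Dlk1, 0.43 for Peg10 and -0.93 for Mest.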

How the results depend on the processing

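The members called between mutants and wt numbered 55, 8 with only the compared conditions in the fit, 5 with the replicate block, 51 to 59 with 1 library left out, and 84 without wt replicates 3 and 4 (chosen after seeing the data). Over all genes these comparisons gave 35213 calls, and 4890 with only the compared conditions, 10225 with the block, 18622 with time course controls added and 18144 within a library set. The fit within a library set also counted the time course libraries as controls. Replicate numbers did not pair the libraries (1 of 28 pairs of the time course and 2 of 190 other pairs correlated over 0.1). Members called in the time course, and between origins at 96 h and 120 h, numbered 8, 9 and 10 with the block, 8, 8 to 9 and 7 with 1 library left out, and 8, 6 to 10 and 7 to 10 under the other settings.

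Calls over all genes between origins numbered 7275 at 96 h, and 4190 and 3570 within set 1 and set 2 and 4251 with Del(CBS1-5) alone. At 120 h they numbered 7173, and 10880 with the block, 4509 within set 1, 4775 with Del(CBS1-5) alone, 3304 with Del(sub-TAD1) alone, and 4460 to 4607 without any 1 of the 4 blastocyst-derived libraries. Scaling by the median of ratios moved the share of these calls that were higher at 96 h from 63.5% to 46.4%, and reversed no member.

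Of the single values, 1414 kept their direction and side of the threshold, 217 lost the call, 19 gained it and 2 reversed. The reversed ones were H19 between origins at 120 h with Del(sub-TAD1) alone (-0.43) and Meg3 from 72 h to 168 h without time course 72 h replicate 1 (-0.69, and 0.89 without replicate 2). The cause was not tested.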
